A study of Homo sapiens with 10 samples.

Results

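The 7 p53 target genes BBC3, BTG2, SESN2, TP53I3, PHLDA3, CDKN1A and MDM2 were followed through ribosome profiling, mRNA-seq, YTHDF1 immunoprecipitation and m6A-seq of HCT116, a human colorectal cancer cell line. They were chosen by name, and selected on knockdown-minus-control differences in mRNA and footprints of these same libraries, so those differences are given as a description with no test. Of the 7 genes, 6 were among the 6914 named genes of the expression table, and all 6 passed the filter on low values, as did 6782 genes in all. CDKN1A was not listed in that table and was measured here in the m6A lists alone. The knocked-down gene was YTHDF1, a cytoplasmic reader of N6-methyladenosine (m6A) in mRNA.

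All cells were HCT116. The control carried a hairpin against GFP, per the file headers, and the knockdown libraries carried hairpins named shY1-1 and shY1-2, here knockdown 1 and knockdown 2. The genotype label of both is shY1, so the labels do not say whether these are different hairpins. Footprints and mRNA each had 1 control and 2 knockdown libraries, and the footprint samples had received cycloheximide at 100 ug/ml for 3 min. The immunoprecipitate with an antibody to YTHDF1, its whole-lysate input and the 2 m6A-seq replicates came from cells with a control genotype. Nothing in the labels says that the libraries came from separate cultures.

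The transcription factor p53 is kept scarce by MDM2, a ubiquitin ligase that marks it for degradation and is itself a p53 target. When p53 is stabilised it binds response elements near its targets, whose products halt the cell cycle, start apoptosis, or adjust metabolism and repair. CDKN1A encodes the cyclin-dependent kinase inhibitor p21, BTG2 an antiproliferative protein, BBC3 the BH3-only protein PUMA, TP53I3 an oxidoreductase linked to p53-dependent cell death, PHLDA3 an inhibitor of AKT, and SESN2 a stress sensor that restrains mTORC1.

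The sequence upstream of each start was read from the RefSeq table (GRCh38.p14), in which 6 of the 7 genes were found, with 9 starts. PHLDA3 was not found there and was not searched. The search used the consensus response element of p53, a pair of adjacent half-sites spanning 20 bases, within the 250 bases before a start. The motif reads the same on both strands. The internal start of MDM2, the promoter known for its response to p53, is shown because it alone held close matches. Capitals mark windows that match the consensus at 17 or more of the 20 positions.

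MDM2, internal start, chr12:68808767-68809016, plus strand: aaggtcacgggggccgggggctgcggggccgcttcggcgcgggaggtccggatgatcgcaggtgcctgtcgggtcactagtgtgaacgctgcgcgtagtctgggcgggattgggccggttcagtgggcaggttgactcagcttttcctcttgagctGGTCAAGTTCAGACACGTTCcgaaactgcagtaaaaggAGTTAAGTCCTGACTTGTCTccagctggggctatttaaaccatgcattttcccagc

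The first of these windows matched at 18 positions and ran from 94 to 75 bases before the start, and the second matched at 17, with 18 bases between them. A match at 18 or more was found in 0.561% of the 35116 promoters of the table, a match at 17 or more in 4.36%, and 2 such windows in 0.142%. The best windows of the other starts are shown for comparison in capitals, within up to 20 bases on either side. Each matched at 15 positions, which 64.5% of all promoters also reached.

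BBC3, chr19:47232801-47232860, minus strand: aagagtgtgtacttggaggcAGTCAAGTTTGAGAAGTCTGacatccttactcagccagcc
BTG2, chr1:203305475-203305518, plus strand: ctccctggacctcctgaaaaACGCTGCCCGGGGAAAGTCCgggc
SESN2, chr1:28259269-28259328, plus strand: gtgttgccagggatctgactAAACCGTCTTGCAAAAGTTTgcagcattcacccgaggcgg
TP53I3, chr2:24084861-24084920, minus strand: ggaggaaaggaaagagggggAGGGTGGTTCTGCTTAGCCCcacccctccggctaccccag

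The same number was found before the first start of MDM2 and before the start of CDKN1A. None of the 6 genes searched held an exact half-site in this window, against 5.57% of all promoters. The window is short, and sites farther away or downstream of a start were not searched.

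For YTHDF1, the targeted gene, the control, knockdown 1 and knockdown 2 libraries had mRNA values of 27.4, 8.62 and 7.81, and footprint values of 61.4, 16.96 and 19.9, so both knockdown libraries held it at a like level. Sums over the named genes ranged from 938928 to 1227320 for footprints and from 339763 to 345044 for mRNA, in a relative unit, so the depth behind a value is unknown. Of the epithelial markers 6 of 12 were in the table, with mRNA sums of 3920, 5499 and 3403 in the same order of libraries and footprint sums of 2339, 3149 and 1808. The keratins KRT8, KRT18 and KRT19 made up most of the mRNA sums, while EPCAM stood at 142, 157 and 141. Of the fibroblast markers 3 of 8 were listed, summing to between 6.35 and 7.50 in mRNA and between 9.08 and 16.96 in footprints. Within those footprint sums COL1A1 stood at 0.631, 13.2 and 3.71 and FN1 at 10.5, 0.312 and 1.88. CD68 was the 1 of 7 blood cell markers listed, at 19.9, 4.98 and 19.9 in mRNA, with 15090, 10162 and 9485 in footprints. Markers that the table does not list have no value here. The part of these markers in the results was not tested, and fewer cells of a type cannot be told apart from less RNA per cell in bulk samples. The unit is not named, so levels are compared below within a gene and not between genes.

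All 6 measured genes had higher mRNA in both knockdown libraries than in the control, by far the more in knockdown 1. On the deposited scale knockdown 1 stood 1.74- to 9.65-fold above the control and knockdown 2 stood 1.11- to 2.81-fold above it. The mean of the knockdown libraries was 17.2 ± 13.1 (SD, n = 2) for BBC3, 30.7 ± 28.8 (SD, n = 2) for BTG2 and 81.9 ± 25.4 (SD, n = 2) for MDM2, and in every member but BBC3 this SD was larger than the distance of the mean from the control. Over all tested genes both knockdown libraries lay above the control in 30.9%, knockdown 1 in 46.9% and knockdown 2 in 54%. The choice of members used this contrast, so nothing is read from the count. All 6 also stood higher in knockdown 1 than in knockdown 2, as 44.7% of all tested genes did.

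Among the genes of cell death, BBC3 (chromosome 19, 47220824 to 47232860) had an mRNA value of 2.80 in control cells, against 26.4 with knockdown 1 and 7.87 with knockdown 2. It was the member farthest above the control in knockdown 2, at 2.81-fold. TP53I3 (chromosome 2, 24077433 to 24084834) stood at 3.91, 16.5 and 5.53 in the same order. PHLDA3 (chromosome 1, 201464278 to 201469188) stood at 9.72, 33.1 and 10.9, so that its knockdown 2 value was 1.12-fold the control. Each of the 3 genes thus had its highest mRNA value in knockdown 1, from 2.99- to 3.36-fold that of knockdown 2.

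The growth arrest gene BTG2 (chromosome 1, 203305519 to 203309602) had an mRNA value of 5.29 in control cells, against 51.1 with knockdown 1 and 10.4 with knockdown 2. SESN2 (chromosome 1, 28259518 to 28282491), the metabolic member, stood at 2.42, 13.0 and 3.58. MDM2 (chromosome 12, 68808172 to 68850686), the feedback ligase, stood at 57.4, 99.8 and 63.9. The gap between the knockdown libraries was 4.91-fold for BTG2, 3.65-fold for SESN2 and 1.56-fold for MDM2.

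**Figure D1:**
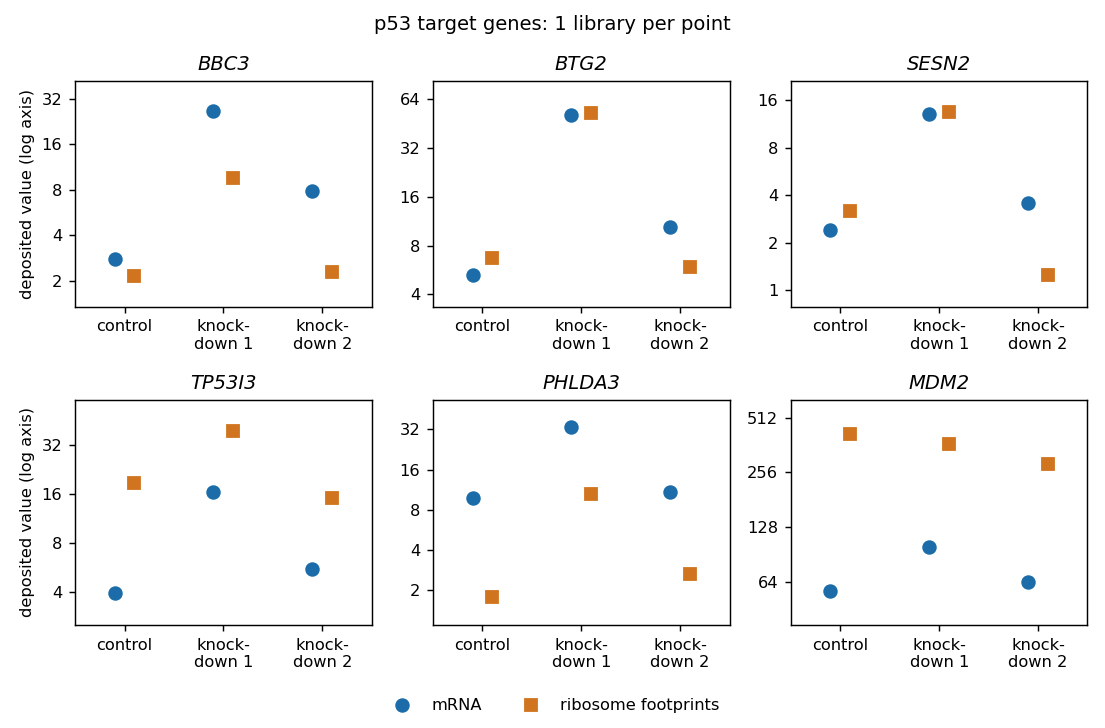
Deposited values (log axis) of mRNA (circles) and ribosome footprints (squares) for the 6 genes in the expression table, 1 point per library, with the control and each knockdown library on the horizontal axis. The mRNA point of knockdown 1 is the highest mRNA point in every panel, while MDM2 footprints are highest in the control, at 417.

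As log2(value + 1), a scale that shrinks differences of weakly expressed genes, the mRNA differences in knockdown 1 were 3.05 for BTG2, 2.85 for BBC3, 2.04 for SESN2, 1.84 for TP53I3, 1.67 for PHLDA3 and 0.79 for MDM2. Among the 6782 tested genes the first 5 lay at percentiles of 99.5 to 100.0 and MDM2 at percentile 94.8. In knockdown 2 the differences were 1.22 for BBC3, 0.86 for BTG2, 0.42 for SESN2, 0.41 for TP53I3, 0.15 for PHLDA3 and 0.15 for MDM2. There BBC3 and BTG2 lay at percentiles 99.6 and 98.5, SESN2 and TP53I3 at 90.9 and 90.4, and PHLDA3 and MDM2 at 68.6 and 69.8. The median over the 6 members was 1.94 in knockdown 1 and 0.42 in knockdown 2, beside -0.04 and 0.02 over all tested genes. BTG2 and BBC3 were the highest members in both libraries and MDM2 and PHLDA3 the lowest.

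Footprints of 5 of the 6 genes were higher than the control in knockdown 1, and those of 2, BBC3 and PHLDA3, in knockdown 2. Over all tested genes 39.1% were higher in knockdown 1, 27.2% in knockdown 2 and 17.5% in both, and the choice of members used this contrast too. All 6 members stood higher in knockdown 1 than in knockdown 2, as did 57.5% of all genes. The mean of the knockdown libraries was 29.4 ± 33.2 (SD, n = 2) for BTG2 and 326 ± 57.5 (SD, n = 2) for MDM2, and in every member but MDM2 the SD was larger than the distance from the control. The higher footprints of BTG2, SESN2 and TP53I3 therefore rest on knockdown 1 alone, and without that library these genes stood at -0.16, -0.89 and -0.28 on the log2 scale.

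BBC3 footprints were 2.15 in control cells, 9.52 with knockdown 1 and 2.31 with knockdown 2. The control and knockdown 2 values differed by 1.07-fold, although the mRNA differed by 2.81-fold between the same conditions. TP53I3 footprints were 18.6, 39.0 and 15.1, and those of PHLDA3 were 1.77, 10.5 and 2.64. PHLDA3 was the member whose footprints stood farther above the control than its mRNA, at 5.94-fold against 3.40-fold in knockdown 1 and 1.496-fold against 1.12-fold in knockdown 2.

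BTG2 footprints were 6.68 in control cells, 52.8 with knockdown 1 and 5.87 with knockdown 2. SESN2 footprints were 3.16, 13.3 and 1.25, so that knockdown 2 held 0.395 of the control while its mRNA held 1.48-fold. MDM2 footprints were 417, 366 and 285, below the control in both knockdown libraries while its mRNA was above it. MDM2 was the only one of the 6 with the assays on opposite sides of the control in knockdown 1. In knockdown 2 this held for MDM2, BTG2, SESN2 and TP53I3. Footprints were lower as a whole, with medians over all tested genes of -0.19 in knockdown 1 and -0.34 in knockdown 2 on the log2 scale. Among all tested genes MDM2 footprint differences lay at percentiles 50.6 and 34.9. In knockdown 2 BTG2, TP53I3 and SESN2 lay at percentiles 62.4, 54.0 and 16.7. Median centring took the mean footprint difference of MDM2 from -0.37 to -0.08.

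**Figure D2:**
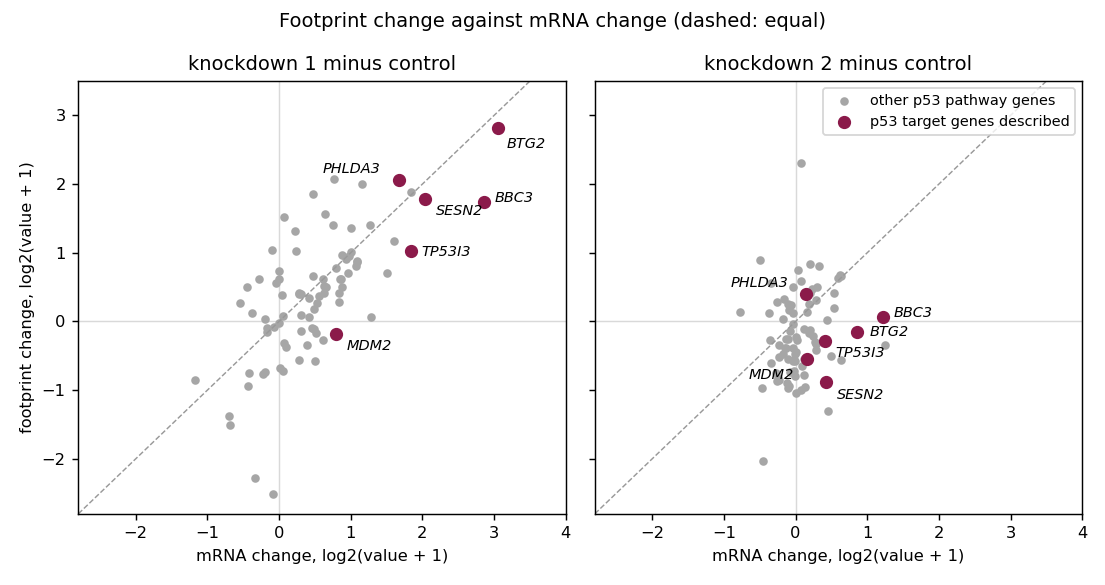
Footprint change (vertical axis) against mRNA change (horizontal axis), both as knockdown minus control on the log2(value + 1) scale, for knockdown 1 (left) and knockdown 2 (right). Large points are the 6 p53 target genes, small points the 78 other p53 pathway genes tested, and the dashed line marks equal change. In both panels 5 of the 6 genes lie below the line and PHLDA3 lies above it.

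The question whether footprints followed mRNA was taken per library as the footprint difference minus the mRNA difference, on the log2 scale. It was below 0 in both libraries for 5 of the 6 genes, as for 52% of all tested genes. For BBC3 it was -1.12 in knockdown 1 and -1.16 in knockdown 2, for MDM2 -0.97 and -0.70, and for TP53I3 -0.81 and -0.69. For BTG2 it was -0.24 and -1.02 and for SESN2 -0.25 and -1.31, nearer to equal change in knockdown 1. PHLDA3 stood at 0.39 and 0.25. The mean over libraries changed sign for BTG2, SESN2 and PHLDA3 when 1 knockdown library was left out, from -0.63 to 0.86 for BTG2 and from -0.78 to 0.56 for SESN2 without footprint knockdown 2, and from 0.32 to -0.51 for PHLDA3 without footprint knockdown 1. Without mRNA knockdown 1 it was 0.47 for BTG2 and 0.03 for SESN2, and without mRNA knockdown 2 it was -0.44 for PHLDA3. Each of these left out a library of 1 assay alone, which set 1 library of that assay against the mean of 2 of the other. Taken within each knockdown number, BTG2 and SESN2 were below 0 in both and PHLDA3 above it in both. Medians of the members were -0.53 for knockdown 1 and -0.86 for knockdown 2, beside -0.18 and -0.36 for the tested genes as a whole. The choice of members used the mRNA and footprint differences that make up this measure, so nothing is read from these medians or from the count below 0.

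The ratio of footprint to mRNA value was taken as the translational efficiency on the deposited scale, and whether either value is per length is not stated. For BBC3 it was 0.770 in control cells, 0.360 with knockdown 1 and 0.293 with knockdown 2, or percentiles 17.3, 9.08 and 6.77 of all named genes in each library. MDM2 went from 7.27 to 3.67 and 4.46 and from percentile 88.4 to 73.3 and 83.2. TP53I3 went from 4.76 to 2.36 and 2.73 and from percentile 76.9 to 56.9 and 67.9. In rank as in ratio these 3 genes were lower in both knockdown libraries than in the control.

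BTG2 stood at ratios of 1.26, 1.03 and 0.565, with percentiles of 29.1, 27.7 and 16.1. SESN2 stood at 1.30, 1.02 and 0.349, with percentiles of 30.1, 27.3 and 8.40. For these 2 genes the control and knockdown 1 ranks lay within 3 percentile points of each other, and knockdown 2 lay lower. PHLDA3 had low ratios of 0.182, 0.317 and 0.244, at percentiles of 1.66, 7.81 and 5.28. Each ratio comes from 1 library per assay, and the footprint values of BBC3, SESN2 and PHLDA3 were low, under 4 in the control.

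MDM4, a relative of MDM2 that blocks the activity of p53, had footprints of 70.4, 11.5 and 49.1 beside mRNA of 6.39, 5.97 and 5.28 (limma adjusted p = 0.585 for footprints). It did not pass.

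A list of 117 other p53 pathway genes, regulators and targets grouped by role, had 78 genes in the tested table. None passed the limma adjusted p threshold of 0.05 in mRNA (0 higher, 0 lower), footprints (0 higher, 0 lower) or translational efficiency. Over all tested genes 0% passed in mRNA, 0.0295% in footprints and 0% in translational efficiency. At an unadjusted limma p under 0.05 stood 0 of the 78 in mRNA, 3 in footprints and 1 in translational efficiency, beside 32, 600 and 185 of all 6782 genes. The 3 were lower, and were BID, FOSL1 and, chosen after its values were seen, RFWD2 (COP1), a ubiquitin ligase for p53. The fit shares 1 estimate of spread between mRNA and footprints, so these counts are not compared between the assays. In mRNA 57 of the 78 were above the control in knockdown 1 (73.1%, beside 46.9% of all tested genes) and 36 in knockdown 2 (46.2%, beside 54%), with medians of 0.42 and -0.01. In footprints 53 were above it in knockdown 1 (67.9%, beside 39.1%) and 29 in knockdown 2 (37.2%, beside 27.2%), with medians of 0.40 and -0.27, beside -0.19 and -0.34 over all genes.

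The regulators of p53 (13 tested) had median mRNA differences of -0.00 for knockdown 1 and -0.10 for knockdown 2. USP7, a deubiquitinase that stabilises MDM2 and p53, had the lowest mean difference, with mRNA at 160 in control cells, 70.7 with knockdown 1 and 93.0 with knockdown 2. ATM, the kinase that signals double-strand breaks, had the highest, at 1.92, 3.11 and 5.92. These upstream genes thus showed no common side of the control, with 3 above it and 5 below it in both libraries.

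The cell cycle arrest genes (9 tested) had medians of 0.61 and -0.13 in mRNA and 0.09 and -0.39 in footprints. CDKN1B, which encodes the kinase inhibitor p27, stood at 5.10, 10.2 and 8.23 in mRNA, the highest mean difference of the group. GADD45B, a stress-induced signalling protein, had the lowest at 30.4, 26.9 and 23.4. Of the 9 genes, 8 were above the control in knockdown 1 and 3 in knockdown 2.

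The apoptosis genes (13 tested) had medians of 0.56 and -0.01 in mRNA and 0.39 and -0.34 in footprints. FAS, a death receptor, had the highest mean mRNA difference at 5.19, 16.5 and 6.56, with footprints of 39.5, 65.2 and 29.2. BID, which links death receptors to mitochondria, had mRNA of 67.9, 50.01 and 62.3 and footprints of 245, 127 and 131. It was lower than the control in both assays and both libraries, without passing (limma adjusted p = 0.552 for footprints).

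The 3 feedback genes tested beside MDM2 had medians of 0.84 and 0.30 in mRNA and 0.41 and 0.42 in footprints. RPS27L, a ribosomal protein paralogue that acts on MDM2, stood at 24.4, 76.7 and 36.0 in mRNA, and its footprints at 254, 572 and 338. Unlike MDM2 it was above the control in all 4 comparisons. FBXO22, an F-box protein, stood at 13.7, 14.4 and 13.7 in mRNA and 42.8, 34.2 and 28.3 in footprints. The difference between RPS27L and MDM2 was not tested.

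The metabolism, redox and autophagy genes (16 tested) had medians of 0.70 and 0.08 in mRNA and 0.79 and 0.13 in footprints, with 12 and 9 of the 16 above the control in mRNA and 15 and 10 in footprints, for knockdown 1 and knockdown 2. The shares in footprints were 93.8% and 62.5%, beside 39.1% and 27.2% of all tested genes. PANK1, a pantothenate kinase, stood at 1.01, 2.69 and 2.12 in mRNA, and ULK2, an autophagy kinase, at 2.35, 1.47 and 1.81. The 4 DNA repair genes tested had medians of 0.20 and 0.11 in mRNA. Among them DDB2, a damage sensor of nucleotide excision repair, stood at 19.7, 40.5 and 22.6 in mRNA with footprints of 58.7, 153 and 70.4.

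The 21 other direct targets had medians of 0.47 and -0.01 in mRNA and 0.34 and -0.47 in footprints. ATF3, a stress-induced transcription factor, had the highest mean mRNA difference of the group, at 2.66, 12.1 and 3.60, and footprints of 14.2, 55.3 and 25.5. FOSL1, an AP-1 subunit, had the lowest, at 816, 506 and 774 in mRNA and 325, 114 and 195 in footprints. ATF3 and SESN2 are also targets of ATF4 in the integrated stress response, so they belong to both programmes. Across the named genes of this list the limma adjusted p was 1.00 in mRNA and between 0.552 and 0.951 in footprints.

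**Figure D3:**
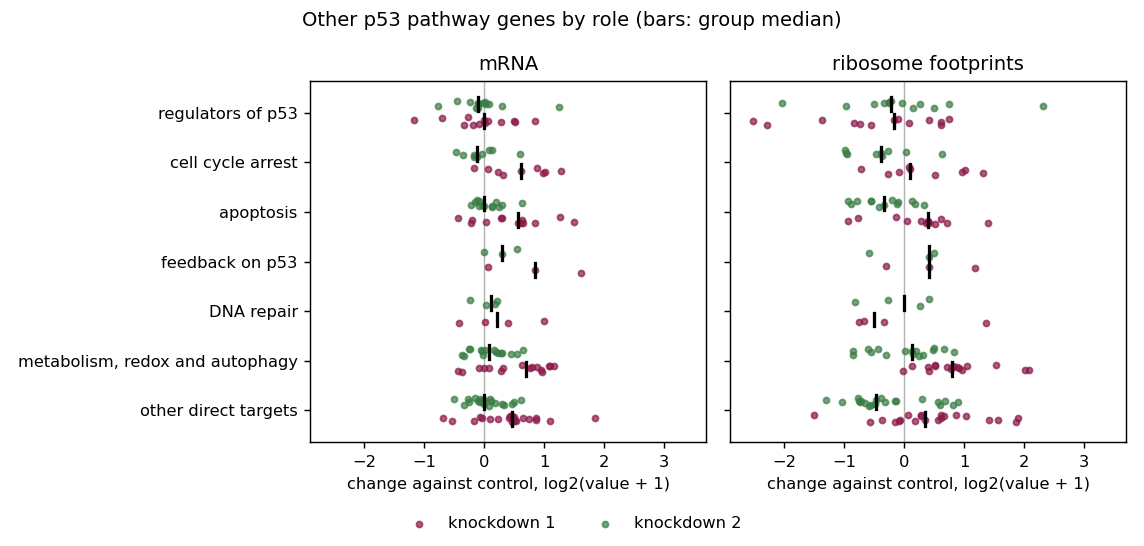
Knockdown-minus-control differences on the log2(value + 1) scale (horizontal axis) for the 78 other p53 pathway genes by role (vertical axis), in mRNA (left) and ribosome footprints (right), with 1 point per gene and library and a bar at each group's median. A gene with 2 roles is drawn in both. Medians of knockdown 1 in mRNA lie at or above 0.20 in every target group and next to 0 for the regulators. Those of knockdown 2 run from -0.13 (cell cycle arrest) to 0.30 (feedback) over the target groups, with the regulators at -0.10 within that range. The lists were chosen with earlier results of these data known.

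Among the genes of the table whose 4 differences lay nearest to the members' median profile, by Euclidean distance, were KLK7, SCG2, SFXN3 and GAS6, at distances of 0.113 to 0.746 log2 units. KLK7, a secreted serine protease, stood at 7.43, 29.3 and 9.93 in mRNA and at 16.5, 60.1 and 13.7 in footprints. SCG2, a secretogranin, stood at 2.21, 11.7 and 2.80 and at 8.92, 45.1 and 9.29. These genes were picked on the same 4 differences, and a gap between the knockdown libraries came with that choice. They are therefore given as a description with no test.

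In the immunoprecipitate with the YTHDF1 antibody, 4 of the 7 genes were on the authors' list, which holds only genes whose FPKM ratio to input is at least 1.5. The list also held 35.3% of the named genes of the expression table and 37.2% of the 78 other pathway genes tested. It has 1 library and 1 input, so the ratios have no replicate check. A gene absent from it has no value here, and BBC3, TP53I3 and CDKN1A were absent.

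SESN2 had the highest ratio of the members at 2.77, from 11.5 FPKM in the immunoprecipitate and 4.14 FPKM in the input. PHLDA3 had a ratio of 2.23, from 17.2 and 7.71 FPKM. MDM2 stood at 1.71, from 11.1 and 6.50 FPKM, and BTG2 at 1.57, from 13.5 and 8.59 FPKM. Within the list of 3930 named genes, whose median ratio was 2.28, SESN2 lay at percentile 68.8, PHLDA3 at 47.4, MDM2 at 16.3 and BTG2 at 5.62. Thus 1 member lay above the list's median, and BTG2 lay close to its lower bound.

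The m6A lists gave windows for 3 of the 7 genes in replicate 1 (BTG2, SESN2 and CDKN1A) and for 5 in replicate 2, with TP53I3 and PHLDA3 added. Of the 6 members in the expression table these were 2 and 4, beside 76.3% and 77.9% of all its named genes. BBC3 and MDM2 had no window in either list. Every listed ratio of immunoprecipitate to input signal is at least 3, 460 and 422 windows have no ratio, and positions run in bases along a transcript that the lists do not name. Both replicates carried the same input signal in all 5972 windows with identical bounds, so their ratios differ by the immunoprecipitate alone and share 1 input.

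CDKN1A had 3 windows in each replicate, all of them shared. The window at 550 to 675 had ratios of 3.10 and 3.47 in replicates 1 and 2. That near 1600 had ratios of 4.28 (1500 to 1650) and 4.97 (1575 to 1650). That near 2150 had the highest ratios of the gene, 7.37 (2000 to 2175) and 7.45 (2100 to 2150), at percentiles 66.4 and 67.6 of the lists. The lists place a motif at the same position in both replicates, GGACC at 631 for the first, GGACT at 1627 for the next and AAACC at 2151 for the last.

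SESN2 had 2 shared windows. The first had ratios of 3.90 (825 to 975) and 3.24 (875 to 975), with AGACC at position 868. That position lay inside the window of replicate 1 and outside that of replicate 2. The second shared window was wider and had ratios of 5.76 (1625 to 2000) and 5.50 (1600 to 2000), with GGACA at 1928. Another window, at 2850 to 2925, at a ratio of 6.75, was listed in replicate 2 alone. SESN2 was thus the member with both the highest immunoprecipitation ratio and windows at like ratios in both m6A replicates.

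BTG2 had a shared window near its transcript start, with ratios of 4.52 (50 to 350) and 7.16 (50 to 375). Its motif was placed at 266 as AAACA in replicate 1 and at 189 as GGACC in replicate 2. A window at 750 to 800 in replicate 2 had a ratio of 15.8 from signals of 160 and 10.2. TP53I3 had 1 window, at 875 to 1075 with a ratio of 4.35, and PHLDA3 had 2, at 50 to 225 and 825 to 1050 with ratios of 4.71 and 3.61, all in replicate 2 alone.

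**Figure D4:**
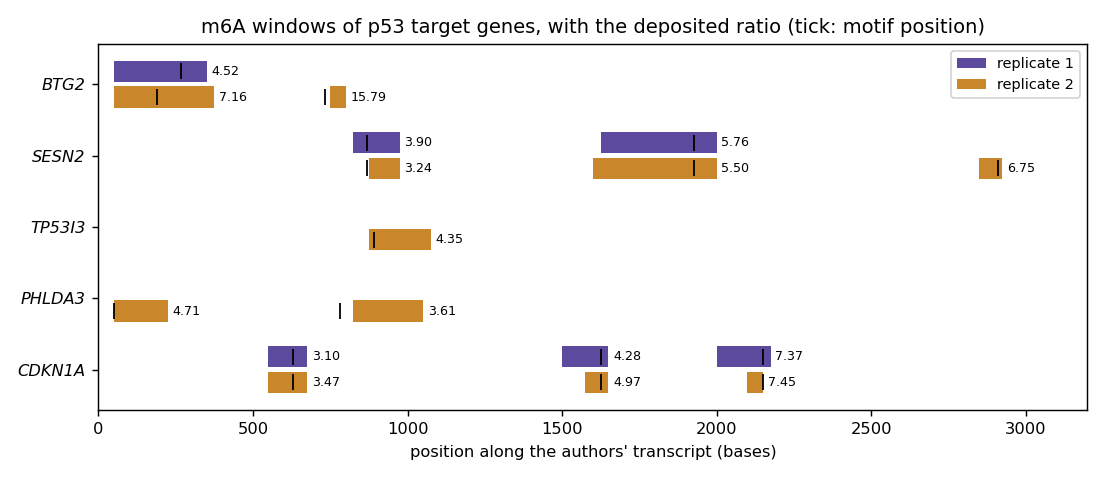
m6A windows of the 5 genes that had any (vertical axis) along the transcript used by the authors (horizontal axis, bases), for replicate 1 and replicate 2, with the deposited ratio beside each window and a tick at the listed motif position. All 3 windows of CDKN1A and 2 of SESN2 overlap between replicates, while those of TP53I3 and PHLDA3 are in replicate 2 alone.

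In all, the members had 6 windows in replicate 1, each overlapping a window of replicate 2 by at least 1 base, and 11 in replicate 2, of which 6 overlapped. Over all genes 74.5% of windows of replicate 1 and 72.6% of those of replicate 2 did so. The listed motif lay inside the window in 13 of the 17 member windows and in 80.9% of all windows. AAACC was the motif of 5 of the 17, with CDKN1A counted in both replicates, beside 6.26% of all windows. It was named because it was the most frequent, so nothing is read from the count. Its listed position lay outside the window for BTG2 (733, window 750 to 800) and PHLDA3 (780, window 825 to 1050). The same held for CDKN1A in replicate 2 (2151, window 2100 to 2150). Median ratios of the whole lists were 5.63 and 5.53, and of the shared member windows the last of CDKN1A in both replicates, the second of SESN2 in replicate 1 and that of BTG2 in replicate 2 exceeded them.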

How the data were processed

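The 7 members and all lists were chosen with earlier results of these data known. The aligner was STAR and the genome GRCh38, per the submitters' processing notes. Their versions, the counting and the peak caller are not stated in the labels or headers. The expression table, deposited by the authors, holds a signal per gene in a unit the header does not name. Its control values are all at least 0.5, so it was filtered on the control. The RIP list holds FPKM values and their ratio, per the file headers, and the m6A lists hold signal and ratio per window, called per replicate by the authors.

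A pseudocount of 1 was added before taking log2. The 12 rows with damaged names and 132 genes with a mean log2 level under 1 were left out. Limma 3.58.1 (R 4.3.3) was fitted with trend to all 6 libraries, 1 mean per assay and condition, 2 residual degrees of freedom, 2-sided, with Benjamini-Hochberg adjustment over all genes, and was tested on simulated data. Each assay has 1 control, whose spread is taken to equal that of the knockdown pairs. Replicates may be technical, and p-values then measure only that spread. If shY1-1 and shY1-2 are different hairpins, the SDs and p-values also hold any difference between the hairpins. Named genes beside the members were MDM4, YTHDF1, the highest and lowest mean mRNA difference in each role group, and the 5 nearest profiles above the lower quartile of level, of which some are not reported here. The threshold of 17 matching bases in promoters was chosen after the matches were seen. Tables and plots used Python 3.11.15, pandas 2.3.3, numpy 2.4.6 and matplotlib 3.10.9. Alternatives are given in the closing section.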

Additional observations from a re-analysis of the deposited data

How the results depend on the processing

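The members' mean mRNA differences kept their sign in all 48 alternatives run for them, and footprint differences in all but 3 of 48, which are BTG2, SESN2 and TP53I3 without footprint knockdown 1. The 48 count genes and settings together, and some settings could not alter a value. Dropping the filter left every member value as it was. Leaving out a library of 1 assay left the differences of the other assay as they were. These counts are therefore no measure of steadiness. The difference of footprints minus mRNA changed sign in 6 of 48 alternatives, all with 1 knockdown library of 1 assay alone left out (BTG2, SESN2 and PHLDA3). It moved by more than 1 SD in 32 of 48. That SD is small where the knockdown libraries agree, at 0.028 for BBC3, 0.080 for TP53I3 and 0.096 for PHLDA3. The 32 is therefore no measure of steadiness, and is not compared with mRNA or footprints. The median of the 78 pathway genes was 0.21 in mRNA and 0.01 in footprints, and -0.01 to 0.42 and -0.27 to 0.40 when 1 knockdown library was left out. Without knockdown 1 of the assay both medians were negative. Median centring gave 0.30 in footprints and quantile normalisation 0.25. No pathway gene passed in mRNA or footprints under any alternative that kept all libraries.

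Over all genes, calls in footprints numbered 2, but 0 with a pseudocount of 0.1, 0 with no filter, 0 with median centring and 0 with quantile normalisation. With 1 knockdown library left out they ranged from 2 to 80 in footprints, 0 to 1 in mRNA and 0 to 1 in translational efficiency, and 80 came without footprint knockdown 2 and 8 without footprint knockdown 1. The spread then came from the knockdown pair of the other assay alone, so calls from those fits are not counted here. With the replicate block, in which the knockdown number is shared by both assays, 30 genes passed in footprints, 2 in mRNA and 6 in translational efficiency. The labels do not say that the number pairs cultures, and the differences between knockdown libraries correlated at 0.37 across genes between assays. At a ratio of at least 2, 2 members stayed on the RIP list. At a ratio of at least 5, 2 member windows of m6A were shared, and 5 with a reciprocal overlap of at least 50%. The controls have 1 library per assay and could not be left out, and translational efficiency could not be fitted in 1 assay alone.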
